A study of Mus musculus with 6 samples.

Results

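The arrays numbered 1 were set against the arrays numbered 2 in haematopoietic stem cells (HSC) of wild-type (WT) and Selp-/- mice, which takes in 4 of the 6 arrays of the study. The labels number the arrays of each genotype 1 to 3, and the members are the arrays whose titles end in 1 (WT 1 and Selp-/- 1) and in 2 (WT 2 and Selp-/- 2). Both genotypes were on the C57BL/6 strain, and the Selp-/- mice lacked the gene of P-selectin, an adhesion receptor of endothelium and platelets. The study asked how P-selectin acts on HSC by setting the profiles of the genotypes against each other. The labels give neither the sort that defined HSC, nor the age or sex of the mice, nor what an array number stands for, and nothing says that the arrays came from separate animals. Selp itself was not analysed here, so the targeted gene gives no check of the genotype labels.

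The comparison was chosen by measured values: Car1 and a set of neutrophil genes were known to differ between the arrays numbered 1 and 2. The differences below are therefore a description, given without p-values, and no count of genes in this contrast supports anything beyond itself. A level is the deposited probe set intensity after background correction and quantile normalization over the 6 arrays, in log2, and it is not comparable between genes. A difference is the level in array 1 minus that in array 2 of the same genotype, so 1 unit is a 2-fold change. In bulk RNA of this kind, fewer cells of a type and less RNA per cell cannot be told apart.

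HSC give rise to every blood lineage. On the way to red cells, progenitors switch on Gata1 and Klf1, then genes of the membrane skeleton and blood groups and the enzymes of heme. On the way to neutrophils, promyelocytes make the enzymes of primary granules, and later stages fill secondary granules under the C/EBP factors. Long-term HSC divide rarely and carry Hlf, Mecom, Meis1, Procr and Slamf1.

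The labelled cell type was checked against these defining genes. In the 4 arrays Hlf lay between 12.13 and 12.53, Kit between 12.18 and 12.52, Meis1 between 11.35 and 11.90, Procr between 9.85 and 10.56 and Mecom between 9.78 and 10.38. In the arrays numbered 3, which are not part of the comparison, Hlf was down at 8.88 (WT) and 8.81 (Selp-/-), with Mecom at 8.16 and 8.01. Markers of other stages were measured as well: in the 4 arrays the erythroid marker Klf1 ranged from 8.49 to 9.95 and the neutrophil marker S100a8 from 8.33 to 10.87. No call of presence was made. The filter on low levels, 8.79, applied to the mean of the 6 arrays. Klf1 in WT 2 and S100a8 in both arrays numbered 2 (8.33 and 8.75) lay below it. The same holds for the arrays numbered 2 in Rhd, Retnlg and Ltf below, so these differences rest on a low side. Probe sets with a single gene symbol were found neither for the adult globin genes nor for Ly6a, so these genes are not described.

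Erythroid promoters often hold a GATA motif and neutrophil granule promoters a C/EBP motif. The bases before the start of 6 genes that were far higher in the arrays numbered 1 are therefore shown first. All 6 are examples that hold the motif marked, so they do not stand for their lists. Rhd and Ces2g were the only 2 of 7 erythroid promoters with the GATA motif searched. Each is the 250 bases that end at the RefSeq start in GRCm38.p6, 5′ to 3′. Rhd and Ces2g are genes of the erythroid lists, and Pklr, which encodes the red cell and liver pyruvate kinase, was in no list. Capitals mark AGATAA, the GATA motif searched, also as TTATCT for the other strand.
Rhd, chr4:134864286-134864535, plus strand: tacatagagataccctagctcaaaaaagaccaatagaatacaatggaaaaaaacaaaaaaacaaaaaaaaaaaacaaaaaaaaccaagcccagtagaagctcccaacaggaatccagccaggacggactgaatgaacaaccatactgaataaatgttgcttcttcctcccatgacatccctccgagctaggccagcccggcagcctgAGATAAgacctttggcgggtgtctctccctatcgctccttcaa
Ces2g, chr8:104961468-104961717, plus strand: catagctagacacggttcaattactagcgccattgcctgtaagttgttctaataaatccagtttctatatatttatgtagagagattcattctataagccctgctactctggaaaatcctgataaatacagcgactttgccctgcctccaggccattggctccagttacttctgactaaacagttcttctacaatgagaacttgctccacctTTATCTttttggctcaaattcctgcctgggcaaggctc
Pklr, chr3:89135892-89136141, plus strand: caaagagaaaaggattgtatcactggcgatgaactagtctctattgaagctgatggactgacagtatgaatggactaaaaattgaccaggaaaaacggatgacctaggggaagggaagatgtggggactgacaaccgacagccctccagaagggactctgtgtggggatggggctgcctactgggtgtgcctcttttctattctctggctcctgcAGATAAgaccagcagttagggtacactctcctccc
The motif began 43 bases before the start in Rhd, 38 in Ces2g and 35 in Pklr. Of the 10 genes of the erythroid and heme lists, above the filter on low levels or not, that were at least 2-fold higher in both genotypes, 7 had an entry in the promoter table and 2 of these held AGATAA, which is 28.6%, against 10.3% of the 27025 genes of the table. Car1, Ank1 and Cldn13 had no entry.

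In the next 3 promoters, of neutrophil secondary granule genes, capitals mark TTGCNNAA or its reverse complement TTNNGCAA, a C/EBP motif.
Ngp, chr9:110419558-110419807, plus strand: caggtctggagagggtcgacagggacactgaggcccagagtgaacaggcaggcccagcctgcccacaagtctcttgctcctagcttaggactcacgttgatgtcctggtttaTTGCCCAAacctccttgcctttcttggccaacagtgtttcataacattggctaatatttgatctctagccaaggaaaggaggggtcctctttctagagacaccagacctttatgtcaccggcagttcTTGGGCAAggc
Lcn2, chr2:32387740-32387989, minus strand: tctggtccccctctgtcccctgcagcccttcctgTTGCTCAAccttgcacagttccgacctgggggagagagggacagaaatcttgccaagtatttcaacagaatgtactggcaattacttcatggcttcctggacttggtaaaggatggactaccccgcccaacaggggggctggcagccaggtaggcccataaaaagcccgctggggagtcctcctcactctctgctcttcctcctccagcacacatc
Ltf, chr9:111019042-111019291, plus strand: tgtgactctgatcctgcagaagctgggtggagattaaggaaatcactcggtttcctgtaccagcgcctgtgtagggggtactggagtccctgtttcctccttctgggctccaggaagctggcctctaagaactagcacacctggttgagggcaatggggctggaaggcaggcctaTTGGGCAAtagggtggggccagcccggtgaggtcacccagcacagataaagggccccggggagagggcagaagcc
Ngp held 2 matches, which began 138 and 11 bases before the start, Lcn2 held 1 at 216 bases and Ltf 1 at 75 bases. Of the 11 neutrophil genes, likewise above the filter or not, at least 2-fold higher in both genotypes, 7 held this motif, which is 63.6%, against 9.55% of all genes of the table. The 7 were Ngp, Lcn2, Retnlg, S100a9, Ltf, Mmp8 and Ly6g. The C/EBP motif was in 0 of the 7 erythroid promoters, and AGATAA was in 2 of the 11 neutrophil ones. A match describes the letters of this window, and no binding was measured. The shares cover only list genes kept by their differences in this same contrast. No share was taken for list genes that were not 2-fold higher. The motif shares therefore lend no support to the differences between the arrays.

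Genes of early red cell progenitors were higher in the arrays numbered 1 than in those numbered 2 in both genotypes. Car1 (carbonic anhydrase 1), an early erythroid enzyme, measured 14.01 in WT 1 and 13.95 in Selp-/- 1, and 12.08 in WT 2 and 11.91 in Selp-/- 2. The difference was 1.93 in WT and 2.04 in Selp-/-, a mean of 3.96-fold, with group means of 13.98 ± 0.04 and 11.997 ± 0.12 (SD, n = 2 arrays each). The arrays of a number lay close together across genotypes, and those of different numbers did not overlap. Such separation alone was common. Of 12455 tested genes, 2508 had both arrays numbered 1 above both numbered 2, and 2709 had the reverse. In the arrays numbered 3, Car1 was lower still, at 9.08 and 9.14.

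Other genes of the list followed the same order. Nxpe2 measured 10.84 and 10.93 in the arrays numbered 1 (WT, then Selp-/-) and 8.96 and 8.82 in those numbered 2. Ermap, which carries the Scianna blood group, measured 10.94 and 11.34 against 9.56 and 9.52. Each of these lay well over 2-fold higher in the arrays numbered 1 in both genotypes. Rhd, of the Rh blood group, measured 9.86 and 9.89 against 8.52 and 8.56. Ank1 (ankyrin 1), which anchors the membrane to the skeleton, measured 10.63 and 10.57 against 9.28 and 9.26. For Rhd and Ank1 the WT and Selp-/- differences were alike, at 1.35 and 1.32 for both genes. The water channel Aqp1 measured 10.79 and 10.99 against 9.24 and 9.64, and the carboxylesterase Ces2g 10.91 and 11.25 against 9.61 and 9.54. Cldn13 measured 9.94 and 9.97 against 8.81 and 8.46.

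Of 30 tested erythroid progenitor and enzyme genes, 24 were higher in the arrays numbered 1 in both genotypes, 1 was lower in both (Apoe, a lipid carrier that other cells make as well) and 5 differed in direction. The share over all 12455 tested genes was 26.4% higher in both and 29.3% lower in both. The median difference of the list was 0.72 in WT and 0.52 in Selp-/-, against -0.01 in each genotype over all genes. By name, 8 of the 30 were at least 2-fold higher in both genotypes, a limit that 0.185% of all tested genes passed. The summed linear level of the list was 91180 in WT 1 and 91613 in Selp-/- 1, against 58469 in WT 2 and 65301 in Selp-/- 2. Car1, whose values entered the choice of the comparison, is part of these counts, medians and sums. A sum of linear levels also gives the most weight to the brightest probe sets, of which Car1 is one. Rhag, the Rh-associated glycoprotein, measured 10.35 and 10.58 against 8.31 and 7.77, but its low level in the arrays numbered 3 kept it below the filter. The Kell antigen Kel measured 9.85 and 9.89 against 8.94 and 8.41, and biliverdin reductase Blvrb 11.15 and 11.09 against 9.86 and 10.26.

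Of the erythroid transcription factors and receptors, Klf1, Gata1 and Epor were higher in both arrays numbered 1. Klf1, the activator of globin and membrane genes, measured 9.95 and 9.94 in the arrays numbered 1 and 8.49 and 8.82 in those numbered 2. Gata1 measured 10.08 and 10.14 against 8.95 and 9.45. The erythropoietin receptor Epor measured 9.87 and 9.99 against 9.34 and 9.57. For these 3 genes the arrays of both numbers did not overlap. Over the list, 4 genes had both arrays numbered 1 above both numbered 2 and 3 had the reverse, beside 2508 and 2709 of all 12455 genes. Factors that HSC share with red cell progenitors did not follow them: Tal1 measured 10.24 and 10.54 against 10.42 and 10.59, Gfi1b 11.80 and 11.66 against 11.49 and 11.77, and Lmo2 12.49 and 12.42 against 12.66 and 12.73. Of the 12 genes of the list, 4 were higher in both genotypes, 5 lower in both and 3 opposite, and the list median was 0.10 in WT and -0.12 in Selp-/-. These counts and medians depended on the scaling. With median centring 9 were higher in both and 2 lower in both, with medians of 0.18 and 0.13. With log2(value + 16) and median centring they were 9 and 0, with medians of 0.20 and 0.17. All genes moved as well. With median centring, 4885 of 12457 tested genes were higher and 2225 lower in both. With log2(value + 16) and median centring, these were 5356 and 2029 of 12456. List counts under these 2 scalings, here and below, are to be read beside those of all genes.

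**Figure D1:**
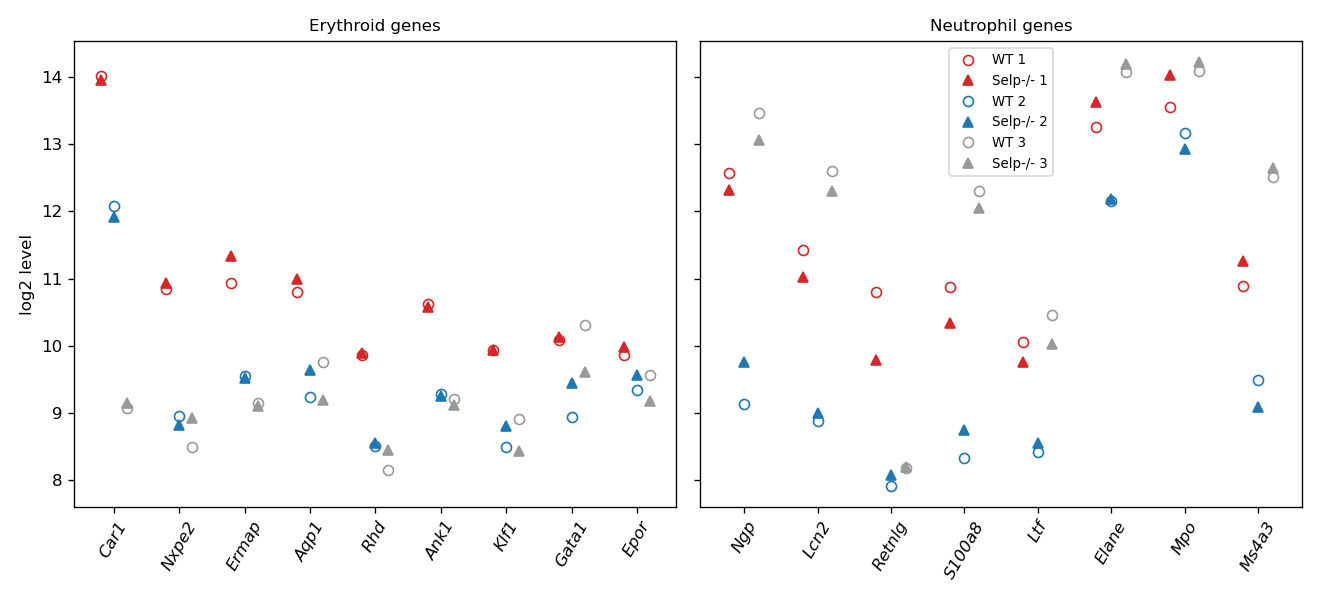
Log2 level of 9 erythroid genes (left) and 8 neutrophil genes (right) in each of the 6 arrays, red for arrays numbered 1, blue for 2 and grey for 3, with open circles for WT and filled triangles for Selp-/-. For each gene drawn, both red points lie above both blue points, an order that 2508 of all 12455 tested genes had. The grey points of Car1, at 9.08 and 9.14, lie below all others of that gene.

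Heme enzymes were higher in 6 of 7 cases in both genotypes, with a list median of 0.34 in WT and 0.45 in Selp-/-. Cpox (coproporphyrinogen oxidase) measured 10.59 and 10.60 against 9.57 and 9.68, Alas1 (aminolevulinate synthase 1) 10.72 and 11.17 against 10.36 and 10.25, and Alad (aminolevulinate dehydratase) 12.13 and 12.30 against 11.78 and 11.74. Ppox, protoporphyrinogen oxidase, was the exception, with -0.07 and -0.23. The embryonic globin Hba-x, the only tested globin gene with its own probe set, differed by 0.03 in WT and 0.10 in Selp-/-. It does not stand for the adult globin genes, which had no probe set with a single symbol. Probe sets listed under several symbols were not assigned to genes, so any difference of the adult globins is not described. The erythroid form of aminolevulinate synthase, Alas2, lay below the filter.

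The largest mean differences of the tested named genes, those of Ngp, Retnlg and Lcn2, were in neutrophil genes. The secondary granule protein Ngp measured 12.57 in WT 1 and 12.32 in Selp-/- 1, and 9.13 in WT 2 and 9.76 in Selp-/- 2, which is 10.8-fold in WT and 5.90-fold in Selp-/-. Lipocalin 2 (Lcn2), which binds siderophores, measured 11.43 and 11.03 against 8.89 and 9.0. In both genes the arrays of a number lay far closer to each other than to the arrays of the other number. Retnlg (resistin-like gamma) measured 10.80 and 9.78 against 7.92 and 8.08. The calprotectin subunit S100a8 measured 10.87 and 10.34 against 8.33 and 8.75, and its partner S100a9 measured 11.12 and 10.32 against 8.61 and 8.91. Lactoferrin (Ltf) measured 10.06 and 9.76 against 8.42 and 8.56. In these 6 genes the WT difference exceeded that in Selp-/-, for example 2.88 against 1.71 for Retnlg, but the 4 arrays leave no residual from which that gap could be tested. The cathelicidin Camp measured 9.60 and 9.32 against 8.94 and 9.06.

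Of 20 tested secondary granule and mature neutrophil genes, 16 were higher in both genotypes, 1 was lower in both (Wfdc21) and 3 were opposite. The list median was 0.70 in WT and 0.81 in Selp-/-, and 7 genes were at least 2-fold higher in both. The summed linear level was 31493 and 25349 in the arrays numbered 1 and 13729 and 14335 in those numbered 2. In the arrays numbered 3, which also entered the filter, it was 62687 and 56118. Chil3 passed the filter through these arrays, at 13.12 and 11.42, against 7.93 and 7.81 in the arrays numbered 1 and 7.52 and 6.97 in those numbered 2. With the 4 arrays normalized and filtered alone, 16 genes of the list were tested. Of these, 12 were higher in both genotypes and 1 was lower in both. The neutrophil collagenase Mmp8 (8.82 and 8.56 against 7.25 and 7.17) and the surface antigen Ly6g (9.23 and 9.08 against 8.02 and 7.91) lay below the filter with differences of the same direction.

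Primary granule genes, which promyelocytes and many early progenitors make, were higher in both genotypes for 11 of 14 and lower in both for 0. Neutrophil elastase (Elane) measured 13.26 and 13.63 against 12.16 and 12.19, and Ms4a3, which marks granulocyte and monocyte progenitors, measured 10.89 and 11.26 against 9.49 and 9.10. Myeloperoxidase (Mpo) measured 13.55 and 14.02 against 13.16 and 12.93, and cathepsin G (Ctsg) 12.64 and 13.14 against 12.17 and 11.89. Unlike the 6 secondary granule and mature neutrophil genes compared above, these 4 differed more in Selp-/- than in WT, by 1.09 against 0.38 for Mpo. The whole secondary granule list did not share the order of those 6, with medians of 0.70 in WT and 0.81 in Selp-/-. With the 4 arrays normalized and filtered alone its medians were 0.97 and 0.59. The median of the primary granule list was 0.40 in WT and 0.80 in Selp-/-, and its summed linear level was 63675 and 77162 against 50695 and 45742. The arrays numbered 3 were highest in Elane (14.07 and 14.20) and Mpo (14.08 and 14.21), whereas Retnlg in them, at 8.18 and 8.20, was close to the arrays numbered 2.

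**Figure D2:**
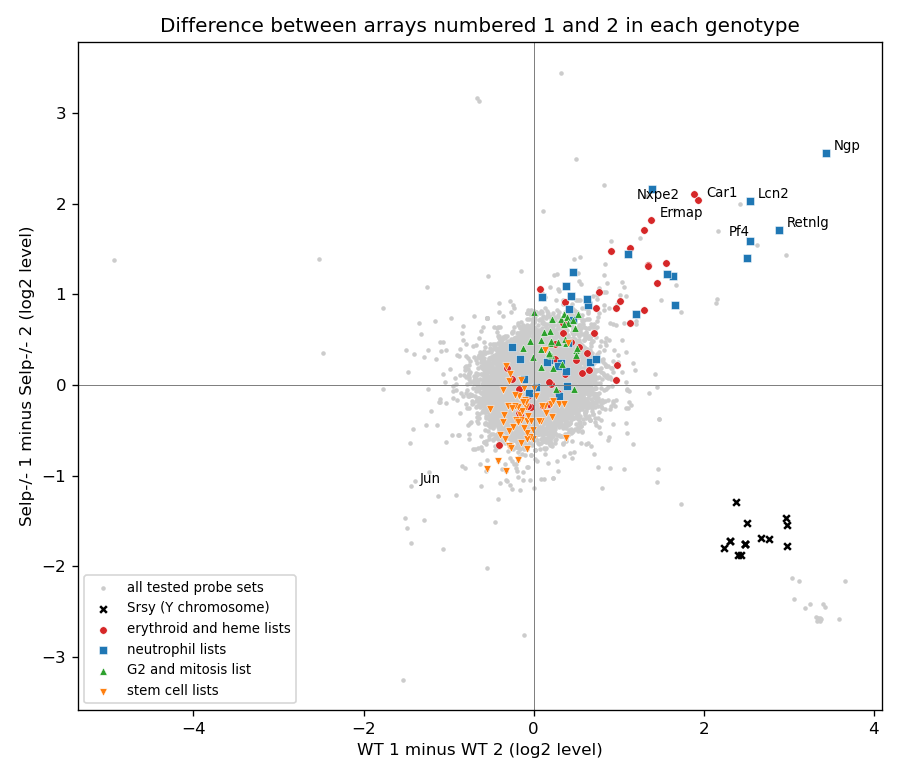
Each point is 1 of 17289 tested probe sets, with the log2 difference between WT 1 and WT 2 across and that between Selp-/- 1 and Selp-/- 2 upward; colours mark gene lists and crosses the Y-linked gene Srsy. Erythroid and neutrophil genes extend to the upper right, as far as Ngp at 3.44 and 2.56, and the 15 Srsy probe sets lie at the lower right.

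Cell cycle genes shifted by smaller amounts. Of 33 tested G2 and mitosis genes, 28 were higher in the arrays numbered 1 in both genotypes and 0 lower in both, with a median of 0.26 in WT and 0.47 in Selp-/-, and 0 reached 2-fold. Cyclin A2 (Ccna2) measured 12.14 and 12.39 against 11.61 and 11.60, and the mitotic kinase Plk1 11.28 and 11.61 against 10.92 and 10.83. Anillin (Anln), a protein of the cleavage furrow, measured 10.40 and 10.48 against 9.94 and 9.77. In these 3 genes both arrays numbered 1 lay above both numbered 2, as in 28 of the list and in 2508 of all 12455 genes. The proliferation antigen Mki67 measured 12.15 and 12.32 against 12.06 and 11.83, a difference of 0.09 in WT and 0.49 in Selp-/-.

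S phase genes were higher in both genotypes for 27 of 34 and lower in both for 1, with a median of 0.15 in WT and 0.26 in Selp-/-. Cyclin E1 (Ccne1), which drives entry into S phase, stood out from the list with 10.51 and 10.55 against 9.66 and 9.51. Cyclin E2 (Ccne2) measured 9.63 and 9.73 against 9.21 and 8.75, and the replication factor Gins1 9.31 and 9.36 against 8.79 and 8.90. The replication helicase gene Mcm2 differed by 0.15 and 0.38, and Pcna, the polymerase clamp, by -0.07 and 0.29. Of 15 G1 cyclins and kinases 7 were higher in both and 3 lower in both, with a median of 0.03 over both genotypes. With median centring these counts were 8 and 1 and the median 0.20, and with log2(value + 16) and median centring 9 and 1 and 0.22. The median of all genes was 0.06 and 0.07 under these 2 scalings. Ccnd1 measured 10.74 and 10.44 against 10.35 and 10.83, with overlapping groups, and the sign of its mean difference changed with the scaling.

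Cell cycle inhibitors and genes of quiescence were lower in both genotypes for 13 of 22 and higher in both for 2. With log2(value + 16) and median centring these counts were 8 and 6, beside 2029 lower and 5356 higher of all 12456 genes. Btg2, an antiproliferative factor, measured 10.37 and 10.49 in the arrays numbered 1 and 10.78 and 10.87 in those numbered 2, and its relative Btg1 10.85 and 10.85 against 11.21 and 11.25. Txnip, the inhibitor of thioredoxin, measured 12.49 and 12.11 against 12.70 and 12.80. Cdkn1c (p57), a cyclin-dependent kinase inhibitor of quiescent HSC, differed by -0.17 and -0.12.

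**Figure D3:**
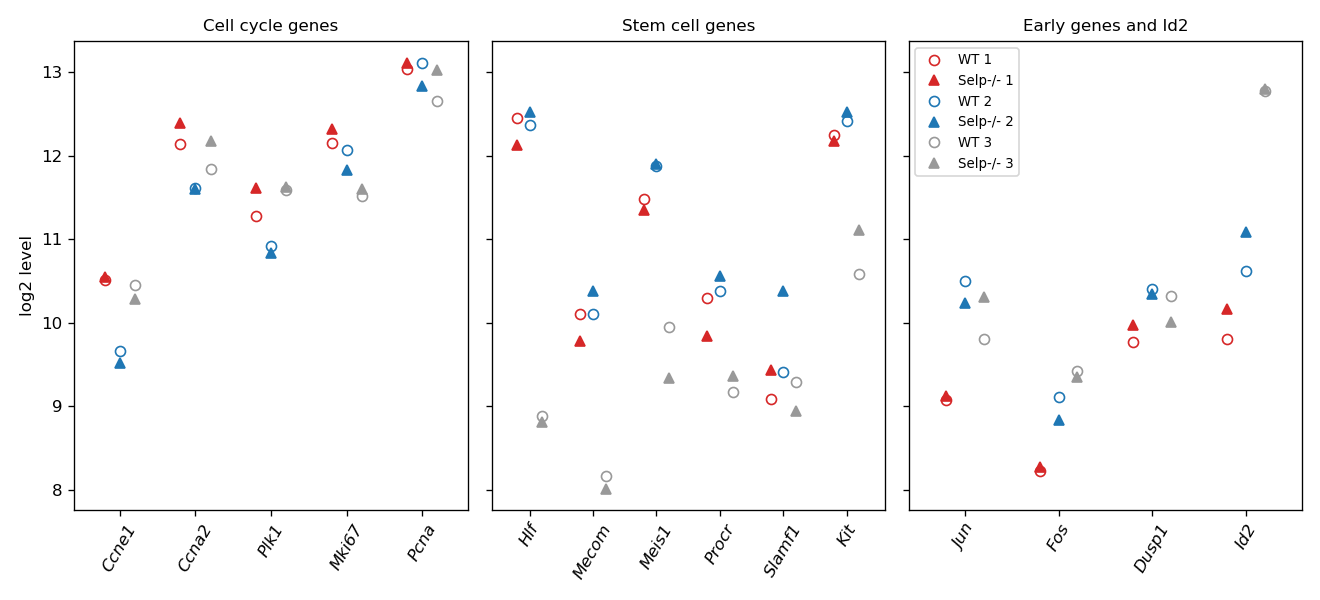
Log2 level of 5 cell cycle genes, 6 stem cell genes and 4 other genes in each array, coloured by array number as red for 1, blue for 2 and grey for 3, with open circles for WT and filled triangles for Selp-/-. Ccne1 separates red from blue by 0.85 in WT and 1.03 in Selp-/-, Jun separates them the other way, and Hlf and Mecom are far lower in the grey points.

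Stem cell genes were lower in the arrays numbered 1, by small amounts that depended on the scaling. Of 35 tested surface and signalling genes, 26 were lower in both genotypes and 0 higher in both, with a median of -0.17 in WT and -0.39 in Selp-/-. With median centring in place of quantile normalization, 20 were lower and 2 higher, beside 2225 lower and 4885 higher of all 12457 genes. The netrin receptor Neo1 measured 8.94 and 9.02 in the arrays numbered 1 and 9.36 and 9.86 in those numbered 2, and the angiopoietin receptor Tek 9.19 and 9.33 against 9.55 and 9.73. The aldehyde dehydrogenase Aldh1a1 measured 10.49 and 10.59 against 10.76 and 11.28, and the channel Trpc6 10.16 and 10.03 against 10.51 and 10.37. Slamf1 (CD150), used to sort long-term HSC, measured 9.09 and 9.43 against 9.41 and 10.38, so that its groups overlapped. Procr, the protein C receptor of HSC, measured 10.30 and 9.85 against 10.38 and 10.56, a difference of -0.08 in WT and -0.71 in Selp-/-. The stem cell factor receptor Kit differed by -0.17 and -0.34. The summed linear level of the list was 100363 and 102069 against 113811 and 118632.

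Among 26 stem cell transcription factors, 16 were lower in both genotypes and 2 higher in both, with a median of -0.06 in WT and -0.25 in Selp-/-. With log2(value + 16) and median centring these counts were 7 and 6 and the WT median was 0.03. Of all 12456 genes, 2029 were lower and 5356 higher in both under that scaling, with a WT median of 0.04. Without Selp-/- 1 and without the genotype term, the list median over both genotypes moved from -0.21 to -0.11. Meis1 measured 11.48 and 11.35 against 11.88 and 11.90, and Mycn 10.78 and 10.58 against 11.07 and 11.26. Both genes lay lower in each array numbered 1 than in either array numbered 2, as did 15 of the 26 and 2709 of all 12455 genes. Hlf, by contrast, measured 12.45 and 12.13 against 12.37 and 12.53 and differed by 0.09 in WT and -0.40 in Selp-/-, and Mecom differed by -0.01 and -0.60. Bmi1, a Polycomb subunit, was higher in both, by 0.14 and 0.38.

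Jun was the only gene with its own symbol among tested probe sets that was at least 2-fold lower in both genotypes, at 9.07 and 9.12 against 10.50 and 10.24. It codes for a subunit of the AP-1 factor that is induced within minutes of many stimuli, and its partner Fos measured 8.23 and 8.28 against 9.11 and 8.83. Of 24 immediate early genes, 15 were lower in both and 2 higher in both, with a median of -0.11 in WT and -0.25 in Selp-/-. Naaa, a lysosomal amidase, measured 9.41 and 10.13 against 10.64 and 11.09, Id2, an inhibitor of helix-loop-helix factors, 9.81 and 10.17 against 10.62 and 11.08, and the nuclear RNA Malat1 11.52 and 11.79 against 12.48 and 12.34. The other lower genes by the same measure were Clec1a, Plbd1, Lce3c, Mrfap1, Mpeg1, Rhoj, Myo18b, Tm4sf1, Slc18a2 and Lpar6, with smaller-of-both differences between -0.68 and -0.55, where the value of the genotype nearer to 0 counts. Myo18b has 16 tested probe sets, of which 8 were lower in both genotypes and 0 higher in both, and Mrfap1 has 2, of which 1 was lower in both.

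**Figure D4:**
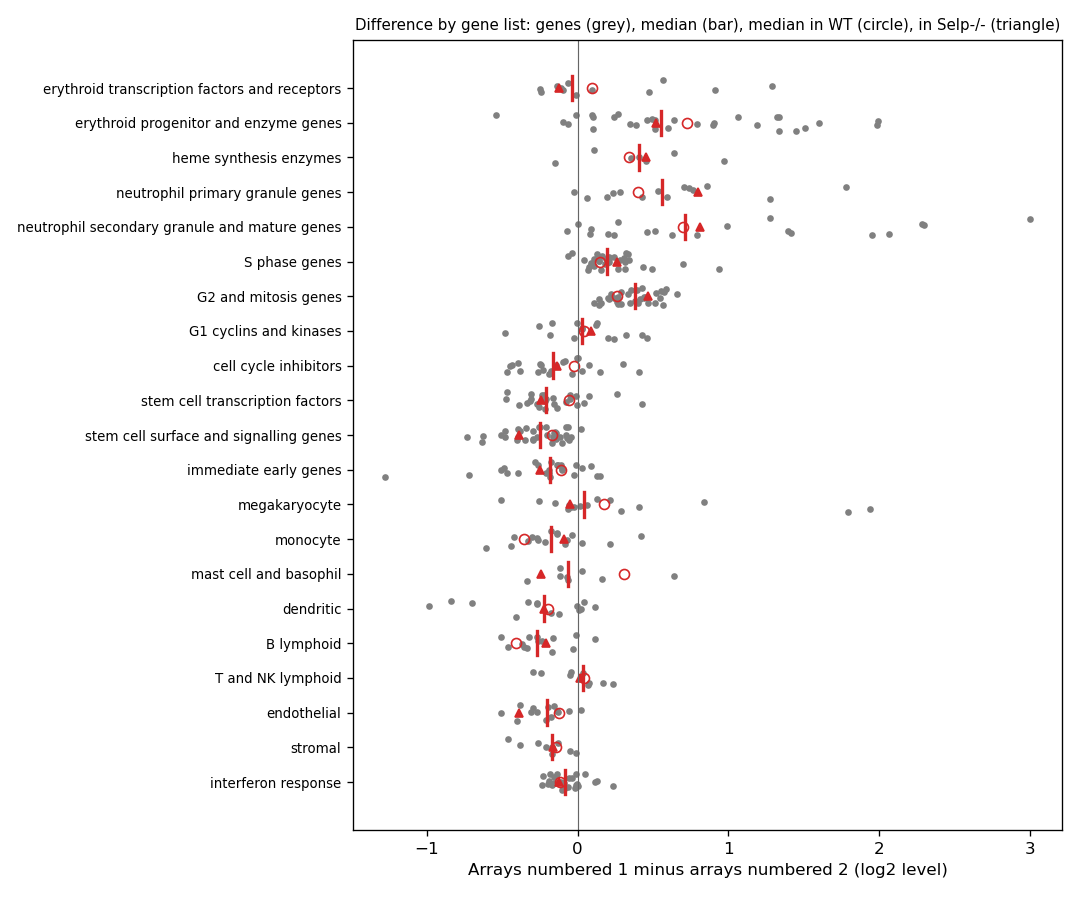
Difference between arrays numbered 1 and 2 for each tested gene of 21 lists (grey points, mean of both genotypes, log2), with the list median as a red bar, the median in WT as a circle and that in Selp-/- as a triangle. The medians of the erythroid progenitor, heme, neutrophil, S phase and G2 lists lie right of 0. Those of the stem cell lists lie left of 0. Erythroid transcription factors, megakaryocyte and mast cell genes have circles and triangles on opposite sides in the quantile normalized values plotted. For the first 2 of these both lie right of 0 with median centring. The megakaryocyte median in Selp-/- is then 0.09, below the 0.11 of all genes.

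Lists of other cells were given the same count. The platelet chemokines Pf4 (11.26 and 11.39 against 9.08 and 9.69) and Ppbp (10.24 and 10.72 against 8.59 and 8.79) were at least 2-fold higher in both genotypes, but of 16 megakaryocyte genes 5 were higher in both and 3 lower in both. With median centring these counts were 10 and 2, beside 4885 and 2225 of all 12457 genes. With log2(value + 16) and median centring they were 12 and 2, beside 5356 and 2029 of 12456. The summed linear level of the megakaryocyte list was 19943 and 21915 against 15556 and 20238. Monocyte genes were lower in both for 7 of 17 and higher in both for 2, B lymphoid genes for 7 and 1 of 14, and dendritic genes for 8 and 1 of 14. In the dendritic list the class II gene H2-Aa measured 10.55 and 10.31 against 11.01 and 11.82. Mast cell genes were higher in both for 2 of 8 and lower in both for 1, and T and NK genes for 3 and 2 of 9. Endothelial genes, several of which HSC express, were lower in both for 10 of 14, stromal genes for 8 of 9 and interferon response genes for 12 of 25, with 0 higher in both in each of these lists. With log2(value + 16) and median centring, 5 of the endothelial genes were lower in both, and 6 of the interferon response genes were lower and 6 higher in both. The interferon median was -0.08 and 0.01 in that scaling, where the median of all genes moved from -0.01 to 0.07. Relative to all genes it was -0.07 and then -0.06. The part of other cells in the neutrophil and erythroid differences was not tested.

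Over all probe sets, limma with Benjamini-Hochberg adjustment over 17289 probe sets placed 56 below the adjusted threshold of 0.05 (0.324%), of which 44 were higher (0.254%) and 12 lower (0.0694%) in the arrays numbered 1. Since values of this contrast chose the comparison, nothing is read from these counts. Leaving out any 1 of the 4 arrays, without a genotype term, gave 12 to 16 higher and 1 to 5 lower. At least 2-fold in both genotypes were 28 higher (0.162%) and 9 lower (0.0521%). By gene, 38 of 12455 were called higher (0.305%), with 12 in the erythroid and heme lists, 10 in the neutrophil lists, 2 in the megakaryocyte list, Ccne1 of the S phase list and 13 in no list, and 2 were called lower (0.0161%), Jun and Naaa. Pklr, in no list, measured 10.76 and 11.21 against 9.43 and 9.12. Near the 2-fold limit, Elane (1.10 in WT and 1.45 in Selp-/-) and St3gal5 (1.67 and 1.10) fell just inside and C1qtnf12 (1.02 and 0.99) and Minpp1 (1.08 and 0.98) just outside, while Jun (-1.44 and -1.11) was inside and Naaa (-1.23 and -0.96) and Id2 (-0.81 and -0.92) outside. The cytoskeletal gene Actb differed by -0.03 in both genotypes.

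Of the 37 probe sets at least 2-fold apart in both genotypes, 13 had no symbol or several, 5 of them higher and 8 lower. Probe set 10375058, listed under several symbols, measured 13.33 and 12.12 against 10.37 and 10.69, and probe set 10545215, with no symbol, 13.62 and 12.82 against 11.19 and 10.82. In the other direction, probe set 10545205 measured 9.01 and 8.997 against 10.55 and 12.25. These 3 were chosen for mention after their values were seen.

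Agreement of the genotypes was also taken over all probe sets. Over the 17289 probe sets the differences in WT and in Selp-/- had Pearson's r of 0.05 and Spearman's rho of 0.13, as a description across probe sets of 4 arrays that share one normalization, and 54.4% had the same sign. Of 98 probe sets at least 2-fold higher in WT 1 than in WT 2, 28 were at least 2-fold higher in Selp-/- as well (28.6%), and these 28 were 42.4% of the 66 that were so in Selp-/-. A group of 33 probe sets was at least 2-fold higher in WT 1 and at least 2-fold lower in Selp-/- 1, and of these 15 were probe sets of the Y-linked gene Srsy and 17 had no single symbol. Without genes of the Y chromosome and probe sets lacking a single symbol, a choice made after seeing the data, r was 0.24, rho 0.16 and the same-sign share 55.4%.

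Y-linked transcripts followed another order than the array numbers. Eif2s3y, a translation factor subunit, measured 8.82 in WT 1 and 7.77 in Selp-/- 2, against 6.44 in both WT 2 and Selp-/- 1. Kdm5d, a histone demethylase, measured 8.61 in WT 1 and 8.60 in Selp-/- 2, against 7.28 in WT 2 and 7.24 in Selp-/- 1, and Uty, its relative in demethylation, 8.28 and 7.98 against 6.83 and 7.14. Thus WT 1 and Selp-/- 2 were high and WT 2 and Selp-/- 1 low in all 3 genes. Xist, the RNA that coats the inactive X chromosome, measured 12.85, 13.60, 13.23 and 13.20 in WT 1, WT 2, Selp-/- 1 and Selp-/- 2. The 3 Y-linked genes lay below the filter, the labels give no sex, and the part of this pattern in other differences was not tested.

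**Figure D5:**
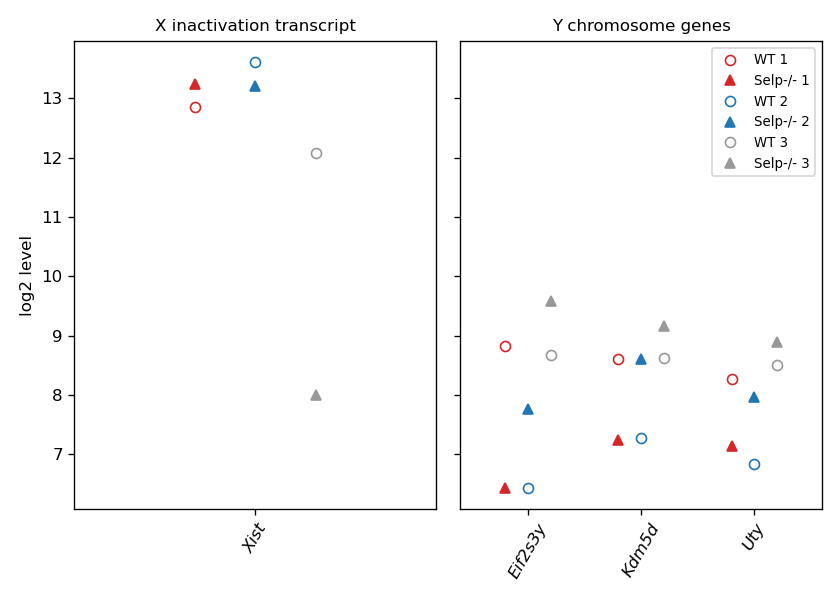
Log2 level of Xist (left) and of 3 Y-linked genes (right) in each array, coloured by array number, with open circles for WT and filled triangles for Selp-/-. For the Y-linked genes WT 1 and Selp-/- 2 lie above WT 2 and Selp-/- 1, as with Kdm5d at 8.61 and 8.60 against 7.28 and 7.24.

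Other properties also moved with the array number. The median deposited intensity was 636 in WT 1 and 563 in WT 2, and 701 in Selp-/- 1 and 638 in Selp-/- 2, so the arrays numbered 1 were the brighter in both genotypes before normalization. The part of this in the results was not tested. Normalized and filtered without the arrays numbered 3, the 4 arrays gave 30 probe sets at least 2-fold higher and 10 at least 2-fold lower in both genotypes.

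The genotype contrast within the 4 arrays did not enter the choice of the comparison and was tested in the same fit. With the array number as a term, 8 of 17289 probe sets passed an adjusted p of 0.05 in limma (0.0463%), 1 higher and 7 lower in Selp-/-. Mid1, a ubiquitin ligase of microtubules, measured 11.24 and 11.23 in WT 1 and WT 2 and 9.56 and 9.37 in Selp-/- 1 and Selp-/- 2, a difference of -1.77 (SE 0.15, limma adjusted p = 0.0079). Probe set 10545173, of an immunoglobulin kappa variable gene, measured 13.51 and 14.10 against 12.54 and 12.56, a difference of -1.25 (SE 0.14, limma adjusted p = 0.0371). The other 6 had no single symbol. Leaving out 1 array, without the number term, gave 1 higher and 8 lower without WT 1, 1 and 0 without WT 2, 2 and 6 without Selp-/- 1, and 0 and 0 without Selp-/- 2, where 545 probe sets had an unadjusted limma p under 0.05. Those 545 are a smaller share of the 17289 than the 0.05 that this threshold takes in without any difference. The same holds for the 770 of the fit with all 4 arrays. None of the erythroid, neutrophil, cell cycle or stem cell genes named above was among the 8 that passed the adjusted threshold. With so few calls, little else was possible, and genes below the filter, such as Rhag, Mmp8 and Ly6g, were not tested. Whether genotype acts on these genes cannot be read from it.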

How the data were processed

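RNA of 6 samples was amplified and hybridized to Affymetrix whole-transcript mouse arrays, per the labels' protocols. Each deposited value is an intensity on a linear scale, and the submitters' processing notes name MAS5. Its version, scaling and settings are not given in the sources used here. The intensities of 28815 probe sets were corrected with normexp (offset 50), log2 transformed and quantile normalized over the 6 arrays. Probe sets whose mean lay at or above the 40th percentile (log2 8.79) were kept, which left 17289. Array number and genotype were fitted in the 4 arrays with limma 3.58.1 in R 4.3.3 (lmFit, eBayes with trend) with 1 residual degree of freedom. The code was tried on simulated data with the same noise for every probe set and large added changes. That trial does not bear on the small differences described here, nor on probe sets of unequal variance. 1 probe set had no residual variance. The precision is limited by the number of arrays: 2 arrays against 2 cannot go below p = 0.333 in a two-sided exact permutation test that ignores genotype. Permuting within genotype leaves fewer arrangements, so the limit is then higher. Array number 3 was left out of the contrast. Genes were named from 21780 probe sets with 1 symbol (1605 had several and 5430 none), 21689 of them matched to RefSeq, and the brightest tested probe set stood for a gene. Motif shares use the first RefSeq start listed for a gene. The members and gene lists were chosen with earlier results of these data known. Genes were named by this rule: Car1; the 15 higher and 15 lower genes with the largest difference in the genotype where it was smaller; up to 6 genes of each erythroid, heme, neutrophil, cell cycle and stem cell list, and up to 2 of other lists; defining markers; sex-linked genes; and Actb. Genes outside it, such as Tal1, Lmo2, Gfi1b, Mcm2, Pcna, Bmi1, Hba-x and the genes of low level, were chosen after their values were seen. Alternatives changed the scaling, background correction, filter, fit and arrays.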

Additional observations from a re-analysis of the deposited data

Results flagged for a closer look

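In 3 lists the median difference between the arrays numbered 1 and 2 had opposite signs in the 2 genotypes, a difference that was not tested. It was 0.0961 in WT and -0.1204 in Selp-/- for erythroid transcription factors and receptors, 0.1778 and -0.0514 for megakaryocyte genes, and 0.3051 and -0.2429 for mast cell and basophil genes. For the first 2 lists both medians lay above 0 with another scaling. With median centring they were 0.18 and 0.13 (erythroid factors) and 0.25 and 0.09 (megakaryocyte), and over all genes 0.03 and 0.11. With log2(value + 16) they were 0.20 and 0.17, and 0.25 and 0.10, and over all genes 0.04 and 0.11. Erythroid factors thus lay above all genes in both genotypes. Megakaryocyte genes lay above all genes in WT and below them in Selp-/-. The mast cell list kept opposite signs, at 0.28 and -0.13 and at 0.17 and -0.12.

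The Y-linked genes differed between array numbers in opposite directions in the 2 genotypes, which was not tested either. Eif2s3y differed by 2.39 in WT and -1.34 in Selp-/-, Kdm5d by 1.34 and -1.36, and Uty by 1.44 and -0.84.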

How the results depend on the processing

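Counts of calls depended strongly on the settings. Higher and lower in the arrays numbered 1 were 69 and 18 probe sets when the 4 arrays were normalized alone, 174 and 33 with median centring, 123 and 18 with log2(value + 16), 9 and 3 with no filter, 8 and 1 with all 6 arrays in the fit, and 27 and 4 without the genotype term, against 44 and 12. Leaving out 1 array, without a genotype term, gave 12 to 16 higher and 1 to 5 lower. The probe sets at least 2-fold lower in both genotypes numbered 5 with log2(value + 16), against 9; this count and that of higher ones need all 4 arrays. In the genotype contrast, higher and lower in Selp-/- were 3 and 13 for the 4 arrays alone, 6 and 23 with median centring, 3 and 11 with log2(value + 16), 0 and 4 with no filter and 3 and 11 with the 60th percentile filter, against 1 and 7; leaving out 1 array gave 0 to 2 and 0 to 8. Without the replicate block they were 0 and 4. The correlation of the differences of both genotypes was 0.05, 0.16 for the 4 arrays alone, 0.22 with the 60th percentile filter, -0.06 with no filter and 0.24 without Y-linked and unnamed probe sets; 2 pairs do not settle whether the number pairs the arrays.

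Of the list medians, secondary granule genes moved from 0.71 to 0.52 without normexp, 0.53 with log2(value + 16), 0.63 with no filter and 0.99 with the 60th percentile filter, and ranged from 0.571 through 0.602 and 0.850 to 0.869 when 1 array and the genotype term were left out; the erythroid list then ranged from 0.55 to 0.79. S phase genes moved from 0.19 to 0.34 with median centring and with log2(value + 16), stem cell transcription factors from -0.210 to -0.053 and -0.0143, and stem cell surface genes from -0.251 to -0.099 and -0.088. These 2 settings moved the median of all genes from -0.01 to 0.06 and 0.07, and in Selp-/- alone to 0.11 in each; relative to it the stem cell lists lay at -0.12 and -0.09 for the factors and at -0.16 for the surface genes under both. Of 368 values of 46 single genes under alternatives, 88 moved by over 1 SD. In 7 of them, all of Hlf or Ccnd1, the sign changed, and neither gene was called or 2-fold. Genes that were called or 2-fold kept their sign, but they had been selected for large differences alike in both genotypes. Their unchanged sign was thus nearly fixed by the selection and says little on robustness. The cause of these shifts was not tested.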
